A study of Homo sapiens with 8 samples.

Results

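The genes described here carry out DNA replication or govern the passage from G1 into S phase. They were chosen by name and not by a rule on measured values, though earlier results of these data were known. Of the 54 listed symbols, 53 had a row in the count table, which held 55679 gene identifiers. UHRF1, the remaining gene, was not analysed here. The genes were taken in 5 groups by role: 18 that license or fire replication origins, 20 that build or service the replication fork, 4 that supply nucleotides, 6 that drive S phase entry (E2F factors, E cyclins and CDC25A) and 5 that assemble chromatin or supply histones.

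RNA was sequenced from MDA-MB468 and BT549, established human triple-negative breast cancer (TNBC) lines, to compare cells with and without Acetalax, a diphenolic laxative with activity against such cells. Each line was studied as parental cells and as chronic exposure (CE) cells. The CE cells were resistant cells grown in rising doses of Acetalax and chronically exposed to 40 μmol/L. They were then kept without the drug for 2 weeks. Each of these 4 backgrounds gave 1 control library and 1 library from cells treated with 1 μmol/L Acetalax for 6 hours, which made 8 libraries with 1 per condition. No genetic alteration was introduced in any group. The CE cells of a line are 1 resistant derivative, so the 2 lines are the only replicates of chronic exposure. Libraries held from 42261122 to 54241728 counts on genes (median 48064282), and the lowest count of any of the 53 genes in any library was 171. Markers of the lines were as follows. The estrogen and progesterone receptor genes ESR1 and PGR were at 0.38 FPKM or less, the epithelial gene EPCAM lay above 168 FPKM in each MDA-MB468 library and below 0.08 in each BT549 library, and the mesenchymal gene VIM lay at 1.73 or less in MDA-MB468 and at 167 or more in BT549. The epithelial genes CDH1 and KRT19 were likewise higher in each MDA-MB468 library than in any BT549 library, and the mesenchymal genes ZEB1 and FN1 the reverse. The leukocyte gene PTPRC was at 0.05 FPKM or less, and the T cell gene CD3E was listed at 0 in each library.

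In G1, the origin recognition complex together with CDC6 and CDT1 loads the MCM2 to MCM7 ring onto DNA, and at the G1-S boundary the kinase CDC7 with DBF4 and the cyclin E kinase turn that ring into an active helicase with CDC45 and the GINS complex. Primase and DNA polymerase alpha then lay down primers, the RFC clamp loader mounts the PCNA ring, and polymerases delta and epsilon copy the strands. Many of these genes are targets of the E2F factors, which the retinoblastoma protein RB1 holds in check, and proliferating tumour cells express them in a wave that crests around S phase entry. In bulk RNA, fewer cells in S phase and less of these transcripts per cell cannot be told apart.

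The sequences just upstream of these genes carried the E2F recognition letters more often than those of all genes together. RefSeq promoter windows (GRCh38.p14, 250 bases before to 50 after the transcription start) were found for 42 of the 53 genes and for 27305 genes in all. The E2F motif, searched on both strands as TTTCGCGC, TTTGGCGC, TTTCCCGC or TTTGCCGC, lay in the windows of 21 of the 42 genes (50.0%) and of 3.99% of all genes. By role, 10 of 15 origin genes, 7 of 16 fork genes, 1 of 4 nucleotide genes, 3 of 4 E2F, cyclin and CDC25A genes and 0 of 3 chromatin genes held it. A list of 25 mitosis and G2 genes with a window held it in 8.0%. That list carried the CHR letters, TTTGAA or TTCGAA, in 80.0% of its genes, against 7.14% of the replication genes and 19.5% of all genes. The CCAAT letters were found for 57.1% of the replication genes, 80.0% of the mitosis and G2 genes and 39.7% of all genes. Each share is of genes with a window, and a match in any window of a gene counted. A match of letters is a description and not evidence of binding.

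The windows of 4 genes are given. They are the first with the motif among the 5 genes most consistently higher (CDC25A, CDC6) or lower (CDC7, MCM2) after Acetalax. Motif-bearing promoters thus stand on both sides by choice. FEN1, SLBP and CCNE1 among the 5 higher genes and PRIM1 among the 5 lower had a window without the motif. Each printed window reads 5′ to 3′ on the gene's strand, and capitals mark the E2F letters, which may lie on either strand. CDC25A lies on the minus strand (chr3:48188368-48188667), and CDC6 (chr17:40287629-40287928), CDC7 (chr1:91500862-91501161) and MCM2 (chr3:127598161-127598460) lie on the plus strand.
CDC25A: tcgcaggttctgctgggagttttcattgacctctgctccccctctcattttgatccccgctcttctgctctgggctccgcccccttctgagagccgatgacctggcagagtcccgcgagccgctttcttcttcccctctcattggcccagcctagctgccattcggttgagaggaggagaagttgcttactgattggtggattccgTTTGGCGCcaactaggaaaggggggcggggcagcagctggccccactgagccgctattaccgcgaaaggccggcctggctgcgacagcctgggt
CDC6: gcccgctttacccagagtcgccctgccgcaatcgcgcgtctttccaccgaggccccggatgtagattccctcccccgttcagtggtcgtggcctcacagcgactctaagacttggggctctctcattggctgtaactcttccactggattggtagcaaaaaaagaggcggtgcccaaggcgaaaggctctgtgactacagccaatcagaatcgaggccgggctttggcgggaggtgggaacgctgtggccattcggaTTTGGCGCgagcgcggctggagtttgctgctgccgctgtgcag
CDC7: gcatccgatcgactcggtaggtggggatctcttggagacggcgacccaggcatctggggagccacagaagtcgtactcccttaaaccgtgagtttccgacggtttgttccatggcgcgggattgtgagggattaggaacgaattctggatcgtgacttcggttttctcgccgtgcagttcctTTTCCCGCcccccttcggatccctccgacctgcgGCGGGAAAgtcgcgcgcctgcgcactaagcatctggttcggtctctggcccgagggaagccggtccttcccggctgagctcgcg
MCM2: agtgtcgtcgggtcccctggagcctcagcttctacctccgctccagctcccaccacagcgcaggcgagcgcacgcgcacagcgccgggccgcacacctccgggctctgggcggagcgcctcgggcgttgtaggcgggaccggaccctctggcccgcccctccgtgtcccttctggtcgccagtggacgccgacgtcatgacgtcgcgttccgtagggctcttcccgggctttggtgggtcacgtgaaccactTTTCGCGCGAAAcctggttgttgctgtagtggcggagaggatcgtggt
The motif began at base 207 of the CDC25A window and at base 258 of the CDC6 window. CDC7 had matches at bases 183 and 217, and MCM2 had overlapping matches at bases 253 and 257.

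Genes with the motif had neither higher nor lower medians throughout than genes without it. The median score of the 21 genes with the motif was -0.03 in parental and -0.08 in CE cells of MDA-MB468, and -0.04 in parental and -0.24 in CE cells of BT549. For the 21 genes with a window and no motif the medians were -0.05, -0.11, 0.06 and -0.08 in the same order. Here a score is the difference of log2(FPKM + 1) between the treated and the control library of a background, and FPKM is the count scaled by the length of the merged exons and by the library total. A score understates the change of a gene at a few FPKM.

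After 6 hours of Acetalax, replication genes as a whole stayed near the median of all genes, while single genes lay apart from it in both directions. The median score of the 53 genes was -0.03 in parental and -0.08 in CE cells of MDA-MB468, and 0.03 in parental and -0.15 in CE cells of BT549. Over the 11133 genes whose mean reached 5 CPM (counts scaled to a common library total), as that of all 53 genes did, the medians were -0.07, -0.03, -0.07 and -0.12 in the same order. When libraries were scaled with edgeR's TMM factors rather than by total counts, the medians of the 53 genes became 0.05, 0.00, 0.06 and 0.06, and those of all genes -0.01, 0.03, -0.05 and 0.01. The direction of the whole list therefore turned with the scaling in 3 backgrounds, MDA-MB468 parental, MDA-MB468 CE and BT549 CE. In BT549 CE cells the median of all genes moved by more than 0.1 between the scalings, so scores there are best read against that median.

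Few of the genes passed a score of 0.5 in size, and by total counts their shares lay near or below those of all genes. In MDA-MB468 parental cells 2 of the 53 were at 0.5 or more, where 8.52% of all genes were, and 2 were at -0.5 or less, where 8.79% were. In BT549 parental cells the counts were 2 higher (3.26% of all genes) and 3 lower (5.94%). In MDA-MB468 CE cells they were 2 higher (4.72%) and 1 lower (4.16%). BT549 CE cells had the widest spread, with 4 higher (8.13%) and 8 lower (18.0%). These counts moved with the scaling. With TMM they became 4 higher and 1 lower in MDA-MB468 parental cells and 3 and 2 in BT549 parental cells. In CE cells they became 2 and 0 in MDA-MB468 and 7 and 3 in BT549. The balance of the 53 genes in BT549 CE cells thus turned round, while the median of all genes there moved from -0.12 to 0.01. Shares of all genes past 0.5 with TMM are not given here, so these TMM counts have no background beside them.

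Signs shared by all 4 backgrounds were found for 9 genes higher (17.0%, against 12.7% of all genes) and 19 genes lower (35.8%, against 30.6%). With TMM scaling these became 15 higher (28.3%, against 19.2%) and 11 lower (20.8%, against 21.0%). The same 9 genes were higher under both scalings: CDC6, CDT1, ORC6, MCM7, FEN1, CCNE1, CDC25A, WDR76 and SLBP. Among the 11 genes lower under both scalings were CDC7, MCM2, PRIM1, POLA1, POLE2, TYMS and each of the 3 subunits of the single-strand binding complex RPA.

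**Figure D1:**
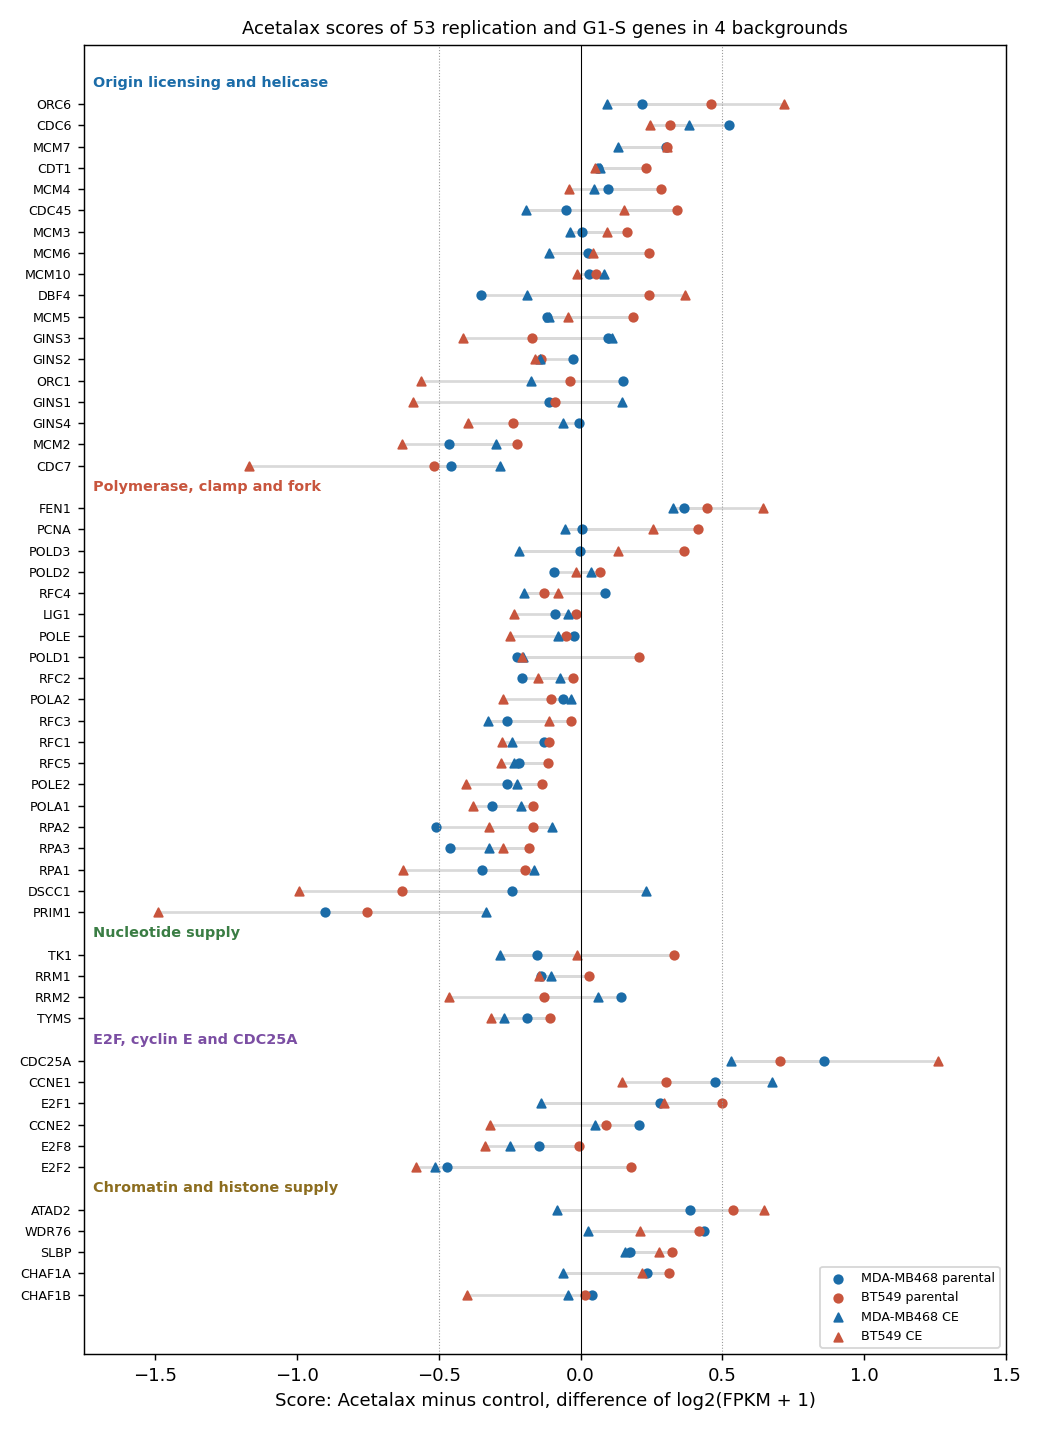
Acetalax score (difference of log2(FPKM + 1), x axis) of each of the 53 genes, grouped by role and ordered by mean score, with 1 point per background, circles for parental and triangles for CE cells, blue for MDA-MB468 and red for BT549; grey lines join the lowest and highest score. CDC25A stands to the right of 0.5 in all 4 backgrounds, the fork genes lie mostly left of 0, and PRIM1 and CDC7 reach the lowest scores, in BT549 CE cells.

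Over the 4 backgrounds, 3 of the 53 genes rose after Acetalax and none passed edgeR's test downward, though other settings called some lower. With edgeR's quasi-likelihood test, each treated library set against its own control, 3 genes (5.66%) were higher at an adjusted p under 0.05, where 2.72% of the 19693 genes tested were, and 0 were lower, where 2.27% were. They were CDC25A, FEN1 and CDC6, 1 gene each from the S phase entry, fork and origin groups. A further 13 genes brought the number with an unadjusted p under 0.05 to 16 (30.2% of the 53), near the 28.0% of all genes. DESeq2 called 9 higher (17.0%, against 7.82% of all genes) and 3 lower (5.66%, against 9.69%), the latter PRIM1, CDC7 and MCM2. With every gene of at least 1 count, edgeR called 7 higher (13.2%, against 4.92%) and 2 lower (3.77%, against 4.73%), the latter PRIM1 and CDC7. The parental and CE cells of a line are related, so the 4 pairs are not independent replicates. The adjusted p-values of this test measure the spread between these pairs. The calls rested on few pairs. Without the BT549 CE pair 1 gene was called, without the BT549 parental or the MDA-MB468 parental pair 0, and without the MDA-MB468 CE pair 3, PRIM1 among them and FEN1 and CDC6 not.

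CDC25A, the phosphatase that activates CDK2 and CDK1, had the largest rise (chr3:48198636-48229892, hg19). Its level was 8.26 FPKM in MDA-MB468 parental control cells and 15.8 after Acetalax, 6.90 and 10.4 in the CE cells of that line, 12.4 and 20.8 in BT549 parental cells, and 5.73 and 15.1 in its CE cells. Every treated library lay above its own control, and the treated and control values overlapped at 1 point, the treated MDA-MB468 CE library below the BT549 parental control. The scores were 0.86 (95% counting interval 0.78 to 0.94) in MDA-MB468 parental, 0.53 (95% counting interval 0.44 to 0.62) in MDA-MB468 CE, 0.70 (95% counting interval 0.63 to 0.78) in BT549 parental and 1.26 (95% counting interval 1.18 to 1.34) in BT549 CE cells. The log2 fold change over the 4 pairs was 1.01 (SE 0.15, adjusted p = 0.0326 by edgeR's quasi-likelihood test). Its adjusted p was 0.058 without the BT549 parental pair and 0.170 without the MDA-MB468 parental pair.

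FEN1, the nuclease that trims the flaps of Okazaki fragments, rose by a smaller and more even amount (chr11:61560109-61564716, hg19). Its level was 67.9 FPKM in MDA-MB468 parental control cells and 87.7 after Acetalax, 63.0 and 79.1 in the CE cells of that line, 63.0 and 86.2 in BT549 parental cells, and 59.5 and 93.4 in its CE cells. Each of the 4 treated libraries lay above all 4 controls. The log2 fold change was 0.54 (SE 0.10, adjusted p = 0.0385 by edgeR's quasi-likelihood test). The span of FEN1 overlaps those of FADS2 and TMEM258, which were also expressed.

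CDC6, which loads the MCM ring at origins, completed the set (chr17:38443885-38459171, hg19). Its level was 12.3 FPKM in MDA-MB468 parental control cells and 18.1 after Acetalax, 11.8 and 15.7 in the CE cells of that line, 10.5 and 13.3 in BT549 parental cells, and 7.43 and 8.99 in its CE cells. BT549 CE cells after treatment stayed below every other background without it, so the rise shows only within pairs. The log2 fold change was 0.49 (SE 0.09, adjusted p = 0.0401 by edgeR's quasi-likelihood test). For both FEN1 and CDC6 the adjusted p passed 0.05 when any 1 pair was left out, reaching 0.18 for each without the MDA-MB468 parental pair.

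CCNE1 and SLBP lay just outside edgeR's test. CCNE1, the cyclin that activates CDK2 at S phase entry, ran from 13.1 to 18.6 FPKM in MDA-MB468 parental cells, 14.7 to 24.1 in the CE cells of that line, 7.80 to 9.85 in BT549 parental cells and 7.45 to 8.36 in its CE cells. Its log2 fold change was 0.52 (SE 0.12, adjusted p = 0.0537 by edgeR's quasi-likelihood test). SLBP, which binds the stem-loop of replication-dependent histone mRNAs, ran from 50.3 to 56.8 FPKM in MDA-MB468 parental cells, 43.6 to 48.8 in the CE cells of that line, 40.5 to 50.9 in BT549 parental cells and 43.8 to 53.3 in its CE cells, with a log2 fold change of 0.33 and an adjusted p of 0.0741 in the same test. Both were higher in all 4 pairs. DESeq2 called both (adjusted p = 0.00208 for CCNE1 and 0.0158 for SLBP), and edgeR with every gene of at least 1 count called CCNE1 (adjusted p = 0.0110).

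**Figure D2:**
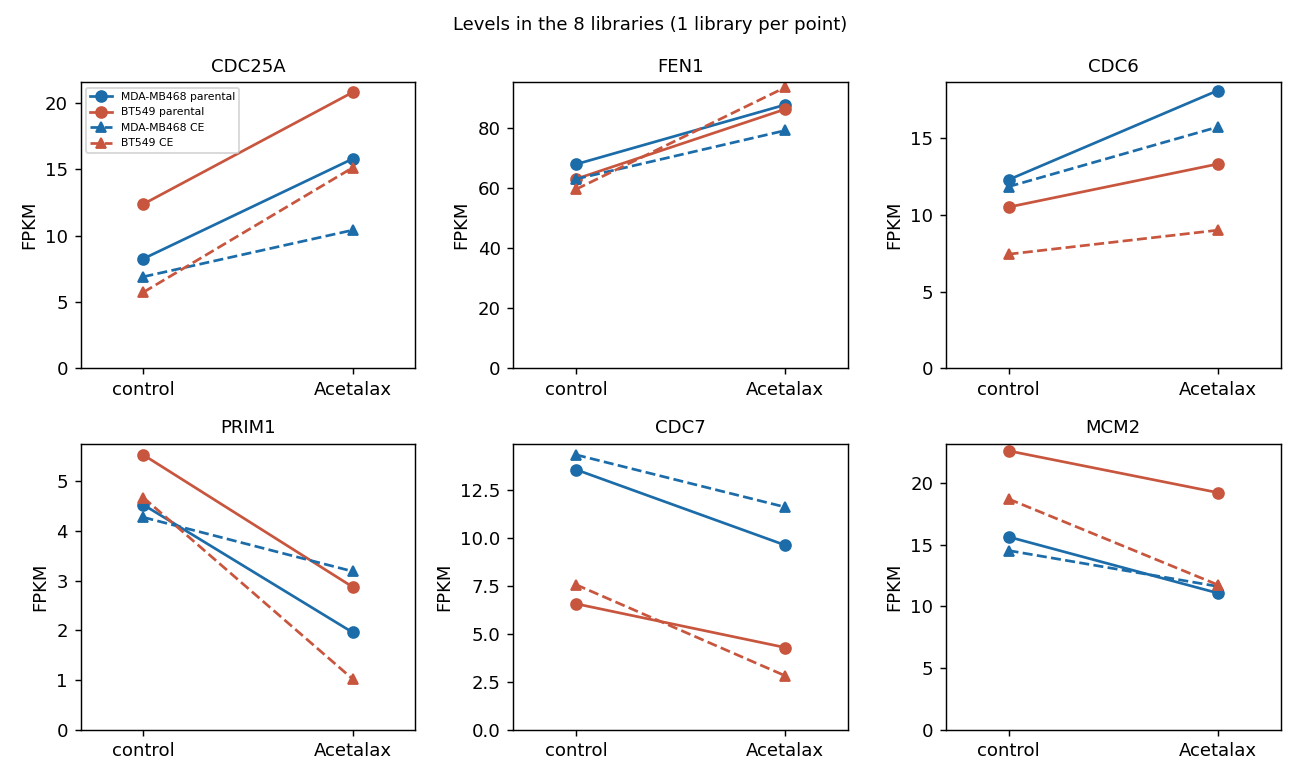
FPKM (y axis, from 0) of 6 genes in control and Acetalax-treated cells, 1 library per point, with lines joining the 2 libraries of a background (solid for parental, dashed for CE, blue for MDA-MB468, red for BT549). CDC25A, FEN1 and CDC6 slope upward and PRIM1, CDC7 and MCM2 downward in all 4 backgrounds, with the steepest slopes of PRIM1 and CDC7 in BT549 CE cells.

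PRIM1 (chr12:57125380-57146157, hg19), the catalytic subunit of primase, had the lowest score of the 53 genes in 3 backgrounds, the exception being MDA-MB468 CE cells, where E2F2 lay lowest. Its level was 4.53 FPKM in MDA-MB468 parental control cells and 1.96 after Acetalax, 4.28 and 3.19 in the CE cells of that line, 5.53 and 2.88 in BT549 parental cells, and 4.67 and 1.02 in its CE cells. All 4 treated libraries lay below all 4 controls. The scores, in the same order, were -0.90, -0.33, -0.75 and -1.49. The log2 fold change of -1.09 was the widest of the 53 genes in this test, but the pairs differed and the call was missed (SE 0.26, adjusted p = 0.0545 by edgeR's quasi-likelihood test). Other settings called it: DESeq2 (adjusted p = 0.00219), edgeR with every gene of at least 1 count (2.11e-06), edgeR with DESeq2's size factors (0.0483) and edgeR without the MDA-MB468 CE pair (0.0474). The span of PRIM1 overlaps that of NACA, whose mean count of 15868.8 stands far above the 546.1 of PRIM1. Among the other genes given in every library, MCM2, RPA3, RFC4, TYMS and CCNE2 also overlap an expressed gene.

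CDC7, the kinase that fires licensed origins, followed (chr1:91966408-91991321, hg19). It ran from 13.6 to 9.63 FPKM in MDA-MB468 parental cells, 14.3 to 11.6 in the CE cells of that line, 6.57 to 4.29 in BT549 parental cells and 7.57 to 2.81 in its CE cells. The lowest score was in BT549 CE cells, at -1.17 (95% counting interval -1.28 to -1.05). Over the 4 pairs the log2 fold change was -0.61 (SE 0.18, adjusted p = 0.0775 by edgeR's quasi-likelihood test), with adjusted p-values of 0.0227 by DESeq2 and 0.00336 by edgeR with every gene of at least 1 count. DBF4, the activating partner of CDC7, did not share this pattern, with scores of -0.35, -0.19, 0.24 and 0.37 in MDA-MB468 parental, MDA-MB468 CE, BT549 parental and BT549 CE cells.

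MCM2, a subunit of the helicase ring, was lower in all 4 pairs (chr3:127317066-127341276, hg19). It ran from 15.6 to 11.1 FPKM in MDA-MB468 parental cells, 14.5 to 11.6 in the CE cells of that line, 22.6 to 19.2 in BT549 parental cells and 18.7 to 11.8 in its CE cells. Its log2 fold change was -0.34 (SE 0.10, adjusted p = 0.0836 by edgeR's quasi-likelihood test and 0.0246 by DESeq2). MCM7, of the same ring, lay on the other side with scores of 0.30, 0.13, 0.30 and 0.30 in the same order of backgrounds and an adjusted p of 0.0534. Of the 6 subunits of the ring, MCM7 was higher and MCM2 lower in all 4 pairs under either scaling. MCM3, MCM4, MCM5 and MCM6 had mixed signs by total counts, and MCM3 and MCM4 were higher in all 4 pairs with TMM scaling.

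Among the remaining origin genes, the scores of ORC6, a subunit of the origin recognition complex, were 0.22, 0.09, 0.46 and 0.72, and those of ORC1, its largest subunit, 0.15, -0.18, -0.04 and -0.56, always in the order MDA-MB468 parental, MDA-MB468 CE, BT549 parental and BT549 CE cells. CDT1, the partner of CDC6 in loading, was higher by 0.05 to 0.23. MCM10, which helps to activate the helicase, lay between -0.01 and 0.08. CDC45 lay between -0.19 and 0.34. The 4 GINS genes were at 0.15 or less in each background, and 3 of them reached between -0.40 and -0.59 in BT549 CE cells. The median score of the 18 origin genes was 0.02, -0.05, 0.18 and -0.03 in the same order. With TMM scaling it was 0.09, 0.04, 0.21 and 0.18, so the sign in CE cells turned with the scaling.

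Fork genes leaned lower in each background. Their median score was -0.21 in MDA-MB468 parental, -0.18 in MDA-MB468 CE, -0.11 in BT549 parental and -0.26 in BT549 CE cells, and 13 of the 20 (65.0%) were lower in all 4 pairs, against 30.6% of all genes. With TMM scaling 8 of the 20 (40.0%) were, against 21.0% of all genes. None of these passed edgeR's test over the 4 backgrounds as fitted with TMM and filterByExpr, whereas PRIM1 passed under the settings named with it. Of the 20, 4 (20.0%) had an unadjusted p under 0.05, FEN1 among them, against 28.0% of all genes. RPA3, the smallest subunit of RPA, ran from 16.1 to 11.4 FPKM in MDA-MB468 parental cells, 16.6 to 13.1 in the CE cells of that line, 7.37 to 6.38 in BT549 parental cells and 9.20 to 7.43 in its CE cells. RPA1, the large subunit, had scores between -0.62 and -0.17, and RPA2 between -0.51 and -0.10. POLA1, the catalytic subunit of DNA polymerase alpha, ran from 4.57 to 3.49 FPKM in MDA-MB468 parental cells, 5.68 to 4.77 in the CE cells of that line, 5.96 to 5.20 in BT549 parental cells and 6.11 to 4.46 in its CE cells.

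The clamp and its loader showed no common direction. PCNA, the sliding clamp, had scores of 0.00, -0.06, 0.41 and 0.25 and was the most abundant of the 53 genes. Of the loader subunits, RFC1, RFC2, RFC3 and RFC5 were lower in all 4 pairs by total counts, at -0.32 to -0.03, and RFC4 lay between -0.20 and 0.09. DSCC1, of the alternative loader that serves sister chromatid cohesion, ranged most, with -0.24, 0.23, -0.63 and -0.99. Of the delta and epsilon polymerase genes, POLD3 had the highest single score, 0.36 in BT549 parental cells, and POLE2 the lowest, -0.41 in BT549 CE cells. LIG1, the ligase that joins Okazaki fragments, lay between -0.24 and -0.02.

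Nucleotide supply genes had median scores of -0.15, -0.19, -0.04 and -0.23 over 4 genes in the same order of backgrounds, and none had an unadjusted p under 0.05 over the 4 pairs in edgeR. With TMM scaling the medians were -0.07, -0.10, -0.01 and -0.03. TYMS, which makes thymidylate, was lower in all 4 under either scaling, at -0.32 to -0.11. RRM2, the inducible subunit of ribonucleotide reductase, lay between -0.47 and 0.14, and RRM1 between -0.15 and 0.03. TK1, which salvages thymidine, was at 0.33 in BT549 parental cells and between -0.28 and -0.01 elsewhere.

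The S phase entry genes had higher median scores in parental than in CE cells, and none of them was called in the test of the difference between those responses. The median score was 0.24 in each of the parental lines, -0.04 in MDA-MB468 CE and -0.09 in BT549 CE cells, over 6 genes. With TMM scaling it was 0.31 in MDA-MB468 parental, 0.27 in BT549 parental, 0.03 in MDA-MB468 CE and 0.10 in BT549 CE cells. The sign in CE cells thus turned with the scaling. E2F1, an activating E2F factor, had 0.28, -0.14, 0.50 and 0.30, and E2F2, another, had -0.47, -0.51, 0.18 and -0.58. E2F8, an E2F repressor, was at -0.01 or less in all 4 by total counts, and CCNE2, the second cyclin E, lay between -0.32 and 0.21. The 5 chromatin genes had medians of 0.23, -0.04, 0.32 and 0.22 in the usual order, and of 0.30, 0.04, 0.35 and 0.43 with TMM scaling. Of these, ATAD2, a bromodomain protein co-expressed with E2F targets, had 0.39, -0.08, 0.54 and 0.65, and WDR76 had 0.43, 0.03, 0.42 and 0.21. The chromatin assembly subunit CHAF1A lay between -0.06 and 0.31, and its partner CHAF1B between -0.40 and 0.04. Over the 4 pairs, 3 of the 6 S phase entry genes and 4 of the 5 chromatin genes had an unadjusted p under 0.05 in edgeR, where 28.0% of all genes did, and CDC25A alone was called there.

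Taken by state or by line, none of the genes passed edgeR's test. With edgeR's quasi-likelihood test, 0 of the 53 genes were called in parental cells (0.0% of all genes tested), where 8 (15.1%, against 8.68% of all genes) had an unadjusted p under 0.05 and DESeq2 called 0. In CE cells 0 were called (0.0% of all genes), 8 (15.1%, against 11.7%) had an unadjusted p under 0.05, and DESeq2 called 1 (2.87% of all genes). For the difference between the CE and parental responses 0 were called (0.0% of all genes), 0 had an unadjusted p under 0.05 (0.462% of all genes), and DESeq2 called 0. For the difference between the lines 0 were called, 9 (17.0%, against 17.3% of all genes) had an unadjusted p under 0.05 and DESeq2 called 0, while 0.533% of all genes were higher and 1.25% lower in BT549. That test took the parental and CE cells of a line, which are related, as its replicates. The gene nearest to a line difference was DBF4, at 10.4 and 7.95 FPKM without and with Acetalax in MDA-MB468 parental cells and at 14.3 and 17.1 in BT549 parental cells. Its response in BT549 exceeded that in MDA-MB468 by 0.68 on the log2 scale (SE 0.18, adjusted p = 0.112 by edgeR's quasi-likelihood test).

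Other replication genes had medians close to those of the 53 genes, whereas mitosis and G2 genes had lower ones. For 55 further genes of the replication pathway (other origin, polymerase, nucleotide, E2F, cyclin and chromatin genes), median scores were -0.09, -0.02, -0.02 and -0.13 in MDA-MB468 parental, MDA-MB468 CE, BT549 parental and BT549 CE cells. In the edgeR test over the 4 pairs, 2 of the 55 rose (3.64%, against 2.72% of all genes) and 4 fell, where 2.27% of all genes did. Together the called genes made up 10.9% of the 55, against 5.0% of all genes. CDK2, the kinase partner of cyclin E, rose by 0.55 on the log2 scale and E2F4, which acts with the pocket proteins, by 0.58. SAMHD1, which degrades deoxynucleotides, fell by 0.60, RBL2, a pocket protein, by 0.63, TK2, the mitochondrial thymidine kinase, by 0.83, and the histone chaperone ASF1A by 0.63. For 30 mitosis and G2 genes the medians were -0.76, -0.33, -0.09 and -0.56. In BT549 parental cells the median of all genes was -0.07, so that list lay near it there. Of the 30 genes, 2 (6.67%) fell in that test, where 2.27% of all genes did, HMMR by 0.79 and KIF20A by 0.85. The difference between these lists and the 53 genes was not tested.

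**Figure D3:**
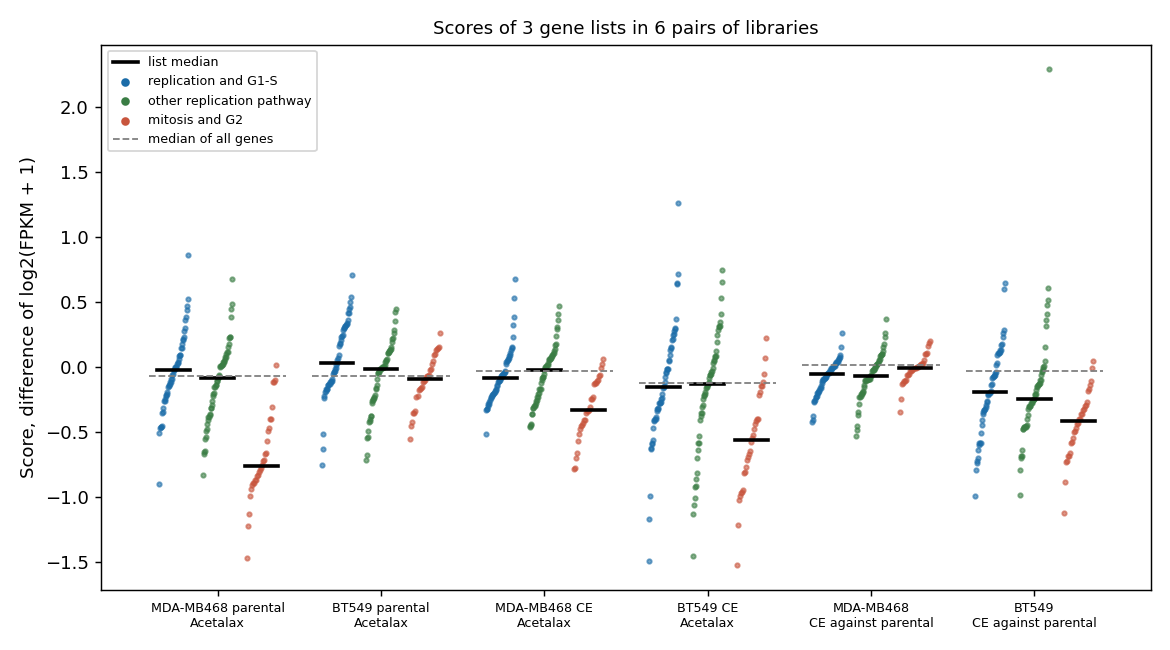
Scores (difference of log2(FPKM + 1), y axis) of the 53 replication and G1-S genes (blue), 55 other genes of the replication pathway (green) and 30 mitosis and G2 genes (red) in the 4 Acetalax pairs and the 2 pairs of CE and parental controls; each point is a gene, black bars are list medians and dashed lines the medians of all genes at 5 CPM or more on average. The mitosis and G2 medians lie at -0.76, -0.09, -0.33 and -0.56 in the Acetalax pairs from left to right, and the replication medians between -0.15 and 0.03.

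CE cells without drug held slightly less of most of these transcripts than the parental cells they came from. The median CE minus parental score of the 53 genes was -0.05 in MDA-MB468 and -0.19 in BT549, against 0.02 and -0.03 over all genes. Lower in both lines were 30 of the 53 (56.6%), against 26.6% of all genes, and higher in both were 8 (15.1%), against 27.6%. With TMM scaling 34 (64.2%) were lower and 4 (7.55%) higher in both, against 31.3% and 23.2% of all genes. This lean was not particular to the 53 genes. By total counts 52.7% of the 55 further pathway genes and 56.7% of the 30 mitosis and G2 genes were lower in both lines. With TMM these shares were 58.2% and 73.3%. The medians of these 2 lists by total counts were -0.07 and -0.01 in MDA-MB468 and -0.24 and -0.42 in BT549. In MDA-MB468, 0 of the 53 passed 0.5 upward, where 3.13% of all genes did, and 0 passed -0.5 downward, where 2.69% did. In BT549, 2 were at 0.5 or more (11.6% of all genes) and 11 at -0.5 or less (11.5%). These 11 were MCM10, GINS3, GINS4, CDC45, ORC6, RFC3, RFC4, DSCC1, CCNE2, CDC25A and ATAD2. No gene passed the test over the 2 lines. With edgeR's quasi-likelihood test 0 of the 53 were called (0.0% of all genes), 0 had an unadjusted p under 0.05 (3.32% of all genes), and DESeq2 called 0.

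Of the 5 genes with the lowest CE scores shared by both lines, 3 were S phase entry genes (E2F2, CCNE2 and CDC25A), with the fork gene DSCC1 and the origin gene MCM3 beside them. E2F2 stood at 14.7 FPKM in MDA-MB468 parental and 10.7 in MDA-MB468 CE control cells, and 5.29 in BT549 parental and 3.91 in BT549 CE control cells. CCNE2 stood at 3.70 FPKM in MDA-MB468 parental and 2.91 in MDA-MB468 CE control cells, and 8.51 in BT549 parental and 5.28 in BT549 CE control cells, and CDC25A at 8.26 FPKM in MDA-MB468 parental and 6.90 in MDA-MB468 CE control cells, and 12.4 in BT549 parental and 5.73 in BT549 CE control cells. For CDC25A the scores were -0.23 in MDA-MB468 and -0.99 in BT549, and the same CE controls enter its Acetalax scores, so a low control raises the score after drug. All 3 genes were lower in the CE library of each line, with wider gaps for CCNE2 and CDC25A in BT549. DSCC1 stood at 7.75 FPKM in MDA-MB468 parental and 6.28 in MDA-MB468 CE control cells, and 18.8 in BT549 parental and 10.97 in BT549 CE control cells. MCM3, a helicase subunit, stood at 86.8 FPKM in MDA-MB468 parental and 74.1 in MDA-MB468 CE control cells, and 91.9 in BT549 parental and 75.1 in BT549 CE control cells. For the 6 S phase entry genes the median was -0.21 in MDA-MB468 and -0.35 in BT549, and 5 of the 6 were lower in both lines under either scaling.

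Few genes were higher in CE cells of both lines. TK1 stood at 115 FPKM in MDA-MB468 parental and 123 in MDA-MB468 CE control cells, and 44.7 in BT549 parental and 68.2 in BT549 CE control cells. CDC7 stood at 13.6 FPKM in MDA-MB468 parental and 14.3 in MDA-MB468 CE control cells, and 6.57 in BT549 parental and 7.57 in BT549 CE control cells. In MDA-MB468 both gaps were below 0.1 on the score scale. RPA3, POLD2 (the second subunit of polymerase delta) and POLA2 (the second subunit of polymerase alpha) had scores of 0.04 in MDA-MB468 and 0.29 in BT549, of 0.03 in MDA-MB468 and 0.23 in BT549, and of 0.06 in MDA-MB468 and 0.17 in BT549, respectively. With TMM scaling RPA3 and POLD2 turned to -0.02 and -0.03 in MDA-MB468, and CDC7, POLA2 and TK1 stayed above 0 in both lines.

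Other genes went opposite ways in the lines. MCM6, a helicase subunit, stood at 51.5 FPKM in MDA-MB468 parental and 47.4 in MDA-MB468 CE control cells, and 18.0 in BT549 parental and 28.8 in BT549 CE control cells. Its scores were -0.12 in MDA-MB468 and 0.65 in BT549, the highest of the 53 genes in BT549, whereas the 5 other subunits of the ring lay between -0.29 and 0.09 there. RFC4 stood at 14.4 FPKM in MDA-MB468 parental and 14.5 in MDA-MB468 CE control cells, and 19.1 in BT549 parental and 11.9 in BT549 CE control cells. CDC45, the helicase cofactor, stood at 18.8 FPKM in MDA-MB468 parental and 19.8 in MDA-MB468 CE control cells, and 12.0 in BT549 parental and 8.17 in BT549 CE control cells. TYMS stood at 28.2 FPKM in MDA-MB468 parental and 24.5 in MDA-MB468 CE control cells, and 8.82 in BT549 parental and 10.8 in BT549 CE control cells. ORC1 stood at 12.2 FPKM in MDA-MB468 parental and 12.7 in MDA-MB468 CE control cells, and 16.6 in BT549 parental and 13.0 in BT549 CE control cells. In each of these the BT549 gap was the wider one, and with TMM scaling the MDA-MB468 scores of RFC4 and ORC1 turned below 0, to -0.05 and -0.01. These differences between the lines were not tested.

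**Figure D4:**
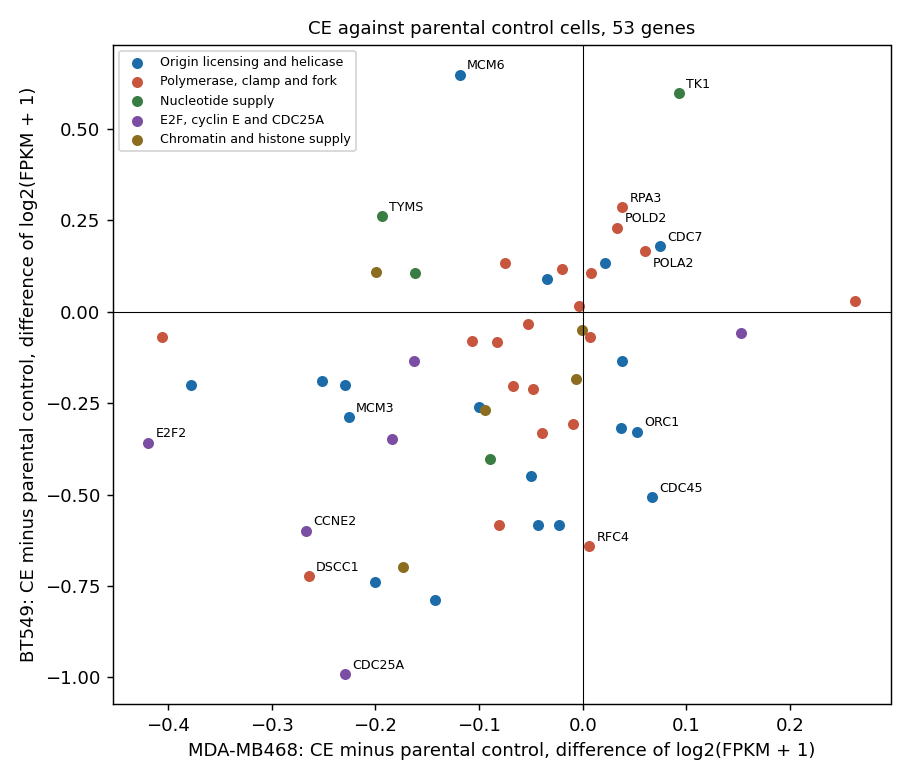
CE minus parental control score (difference of log2(FPKM + 1)) of the 53 genes in MDA-MB468 (x axis) and BT549 (y axis, a wider scale), coloured by role, with the genes named in the text labelled. Most points lie at the lower left, where both lines were lower in CE cells, with CDC25A lowest at -0.99 in BT549 and MCM6 and TK1 highest at 0.65 and 0.60.

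The levels of the 53 genes spanned from 1.24 to 233 FPKM as means over the 8 libraries. Highest was PCNA, with 342 FPKM in MDA-MB468 parental control cells and 343 after Acetalax, 258 and 248 in the CE cells of that line, 151 and 202 in BT549 parental cells, and 144 and 172 in its CE cells. Next came TK1, with 115 FPKM in MDA-MB468 parental control cells and 104 after Acetalax, 123 and 101 in the CE cells of that line, 44.7 and 56.4 in BT549 parental cells, and 68.2 and 67.6 in its CE cells. MCM3 held 86.8 FPKM in MDA-MB468 parental control cells and 87.0 after Acetalax, 74.1 and 72.2 in the CE cells of that line, 91.9 and 103 in BT549 parental cells, and 75.1 and 80.2 in its CE cells. PCNA and TK1 were higher in every MDA-MB468 library than in any BT549 library, while the MCM3 values of the lines overlapped. When each gene's longest transcript set its length the first 3 were PCNA, MCM7 and MCM3, so only the place of PCNA and MCM3 among them held. At the low end, POLA2 lay between 0.927 and 1.50 FPKM, GINS3 between 1.70 and 4.40 and PRIM1 between 1.02 and 5.53, and by longest transcript E2F8 stood in the place of PRIM1.

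More of the 53 genes differed between the cell lines than after Acetalax. With edgeR's quasi-likelihood test over the 4 conditions, 15 of the 53 genes (28.3%) were higher in BT549, where 27.3% of all genes tested were, and 14 were lower, where 29.5% were. The share of the list that differed, 54.7%, was thus near that of all genes. DESeq2 called 33 of the 53 (62.3%, against 60.4% of all genes), and between 20 and 26 were called when any 1 condition was left out. Shares of all genes in those reduced fits are not given here. The libraries of a line are related, so these adjusted p-values measure the spread between these libraries.

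ATAD2 had the largest difference toward BT549, at 18.9 FPKM in MDA-MB468 parental control cells and 25.1 after Acetalax, 16.7 and 15.7 in the CE cells of that line, 51.1 and 74.5 in BT549 parental cells, and 31.1 and 49.2 in its CE cells. Each BT549 library lay above each MDA-MB468 library, and the log2 difference was 1.55 (SE 0.17, adjusted p = 0.0006 by edgeR's quasi-likelihood test). MCM4, a helicase subunit, held 20.9 FPKM in MDA-MB468 parental control cells and 22.4 after Acetalax, 17.7 and 18.3 in the CE cells of that line, 46.0 and 56.2 in BT549 parental cells, and 39.9 and 38.8 in its CE cells, a log2 difference of 1.35 with no overlap between the lines. For CCNE2, levels were 3.70 FPKM in MDA-MB468 parental control cells and 4.42 after Acetalax, 2.91 and 3.05 in the CE cells of that line, 8.51 and 9.13 in BT549 parental cells, and 5.28 and 4.03 in its CE cells. Its log2 difference was 1.04, and the lowest BT549 library lay below the highest MDA-MB468 library.

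TYMS led in the other direction, at 28.2 FPKM in MDA-MB468 parental control cells and 24.6 after Acetalax, 24.5 and 20.2 in the CE cells of that line, 8.82 and 8.11 in BT549 parental cells, and 10.8 and 8.44 in its CE cells. The log2 difference was -1.27 (SE 0.17, adjusted p = 0.0012 by edgeR's quasi-likelihood test), and the lines did not overlap. E2F2 held 14.7 FPKM in MDA-MB468 parental control cells and 10.3 after Acetalax, 10.7 and 7.22 in the CE cells of that line, 5.29 and 6.12 in BT549 parental cells, and 3.91 and 2.28 in its CE cells, a log2 difference of -1.17. CDC7, with the values given above, differed by -1.13, and CCNE1 by -0.88. Some genes of the same family or complex lay on opposite sides. CCNE1 was higher in MDA-MB468 and CCNE2 in BT549, CDC7 was higher in MDA-MB468 and its partner DBF4 in BT549 (0.74), CHAF1A was higher in BT549 (0.87) and CHAF1B in MDA-MB468 (-0.86), and RPA1 and RPA2 were higher in BT549 (0.85 each) and RPA3 in MDA-MB468 (-0.74).

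The RNA of RB1, whose protein restrains the E2F factors, differed between the lines, and RB1 protein was not measured. The RB1 transcript lay between 0.22 and 0.23 FPKM in the 4 MDA-MB468 libraries and between 4.36 and 6.44 in the 4 BT549 libraries. The inhibitor gene CDKN2A lay between 20.2 and 21.8 in MDA-MB468 and between 122 and 127 in BT549. Among the 55 further pathway genes, 37 (67.3%, against 56.8% of all genes) differed between the lines in the edgeR test. Of the 55, 24 (43.6%, against 27.3%) were higher in BT549. SAMHD1 ran from 1.68 to 0.975 FPKM in MDA-MB468 parental cells, 1.51 to 0.848 in the CE cells of that line, 6.18 to 4.38 in BT549 parental cells and 34.0 to 21.6 in its CE cells, and was more abundant in BT549 CE cells than in any other background.

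**Figure D5:**
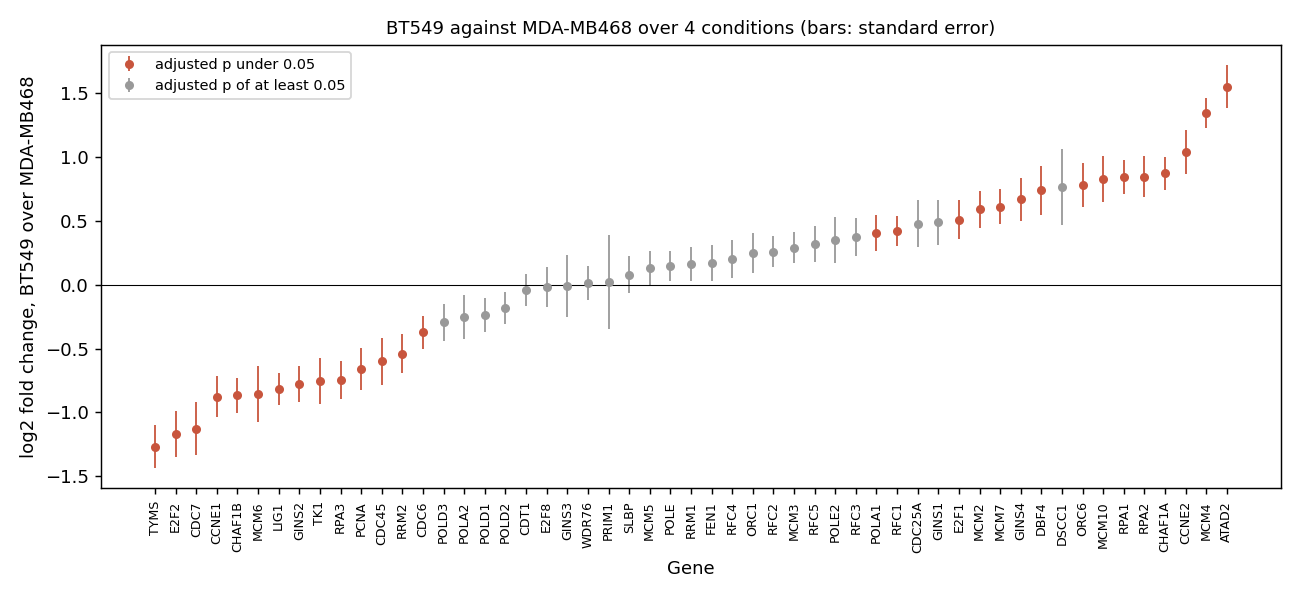
Log2 difference of BT549 over MDA-MB468 (y axis) for each of the 53 genes (x axis, ordered by value) from edgeR's fit over 4 conditions, with bars of 1 standard error and red points for an adjusted p under 0.05. The 29 red genes lie at both ends, with TYMS lowest at -1.27 and ATAD2 highest at 1.55, and DSCC1 and PRIM1 have wide bars and were not called.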

How the data were processed

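RNA-seq libraries (polyA-selected total RNA, directional kit) of 8 conditions were analysed, 1 library per condition, grouped by the labels. The authors aligned reads to hg19 with STAR (version 2.7.11b in the submitters' processing notes), ran its GeneCounts mode and deposited the raw counts of each gene, not normalized. The strand column and annotation are not given in the sources used here, so overlapping genes are uncertain: 14 of the 53 genes overlap another gene with a mean of at least 5 CPM. The table had 58154 rows for 55679 identifiers, of which 1392 were repeated and kept once. Counts were 42261122 to 54241728 per library, and intervals cover counting error only.

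FPKM values were derived from them with merged exons of GENCODE on GRCh37, and scores with a pseudocount of 1. Tests used edgeR 4.0.16 in R 4.3.3 (quasi-likelihood, TMM, filterByExpr, Benjamini-Hochberg over all genes tested, threshold 0.05). With 1 library per condition, lines or backgrounds served as replicates, though the parental and CE backgrounds of a line are related. The scripts were tested on simulated data. Alternatives were DESeq2 1.42.0 (test and size factors), no filter on low counts, a pseudocount of 0.1 and leaving out each pair. For sign counts the other scalings, and for the order of levels the longest transcript, were added after the data were seen. Genes with values in every library were the 5 with the highest smallest score and the 5 with the lowest largest score over the Acetalax pairs, the 5 highest, lowest and most opposite CE scores, the 3 highest and lowest levels and the 3 widest line differences, besides called genes. Other genes were named after their values were seen. The genes and lists were chosen with earlier results of these data known. A marker gene is not reported here.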

Additional observations from a re-analysis of the deposited data

How the results depend on the processing

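Each condition had 1 library, so scores have no replicate check. The median score of the 53 genes turned sign with the library scaling. In MDA-MB468 parental cells it became 0.0475 with TMM and 0.0459 with DESeq2's size factors. In MDA-MB468 CE cells it became 0.004 with TMM and -0.0039 with size factors. In BT549 CE cells it became 0.0569 with TMM and 0.0446 with size factors. The other medians kept their sign. Over the 4 backgrounds, the 3 calls were 5.66% of the 53 genes, against 5.0% of all genes. They became 9 with every gene of at least 1 count (17.0%, against 9.65%) and 12 with DESeq2 (22.6%, against 17.5%). When 1 pair was left out they ranged from 0 to 3, and the shares of all genes in those fits are not given here. With every gene of at least 1 count, the 0 calls became 1 in parental cells (1.89%, against 1.73% of all genes). Under that setting they became 3 in CE cells (5.66%, against 2.91%) and 1 for the difference between lines (1.89%, against 4.39%). DESeq2 called 1 in CE cells (1.89%, against 2.87%). The cause of these shifts was not tested, except that leaving out a pair leaves fewer samples. CDC25A, FEN1 and CDC6 kept their direction under each alternative.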

Other observations

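Chromosome 8 held 5 of the 53 genes, MCM4, GINS4, DSCC1, CCNE2 and ATAD2. All 5 were more abundant in BT549 than in MDA-MB468, by 1.35, 0.67, 0.77, 1.04 and 1.55 on the log2 scale in that order, and 4 of them passed edgeR's quasi-likelihood test, DSCC1 being the exception. The 385 genes of that chromosome with a mean of at least 5 CPM had a median log2 difference of 1.19 between the lines, the highest of the 23 chromosomes compared, which together held 11087 such genes. The same 5 genes had lower levels in BT549 CE than in BT549 parental control cells, with scores of -0.20, -0.74, -0.72, -0.60 and -0.70 in that order, where the chromosome's median score was -0.24, the fourth lowest of the 23. In MDA-MB468 the chromosome's median score for CE against parental control cells was 0.02. These genes were picked out after their values were seen, and no cause was tested.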
